A study of Homo sapiens with 2 samples.

Results

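The interior of the long arm of chromosome 4 is described here, in a chromatin immunoprecipitation and sequencing study of Myocardin in a lung cancer line. The interior was the interval from 52703736 to 186043254 on chromosome 4 of GRCh37, which is the long arm without its outermost 5 Mb. Its members were all peak summits in that interval, 1909 of the 105637 in the list. The interval was chosen by the number of peaks per Mb of its arm, the sparsest autosomal arm of the list. Counts and scores come from that same list, so they are given as a description, and no test was made of any value below.

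The cells were A549, a human lung adenocarcinoma line, made to overexpress the Myocardin gene MYOCD stably from the vector pWPI. Chromatin of this line was precipitated with anti-Myocardin antibody and with IgG, with 1 library of each and no replicate. Both libraries carry the overexpression, and the sources used here do not give whether the line is a single clone or a pool. The single deposited list assigns no peak to either antibody, so no peak here can be called specific to anti-Myocardin. Sequencing depth was likewise not stated there. Intervals printed below cover counting error alone, with each peak taken as independent.

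Myocardin is a transcriptional coactivator that does not bind DNA by itself but is brought to it by the serum response factor, which recognises the CArG box. It is known for switching on smooth muscle and cardiac genes, and such genes are normally quiet in lung epithelium. Large parts of the long arm of chromosome 4 are known as gene-poor, AT-rich sequence with wide gene deserts, interrupted by gene clusters. Among the clusters on this chromosome are the CXC chemokines, the alcohol dehydrogenases and the SIBLING genes, which encode matrix proteins of bone and teeth. RefSeq (GRCh38.p14) places all 13, 7 and 5 listed members of these families on chromosome 4. No GRCh37 annotation or sequence was used here, so no summit was placed in or near a gene and no sequence is shown.

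Peaks were spread thinly over the whole interior rather than missing from parts of it. The 1909 summits lay on 133 Mb at 14.3 per Mb (exact Poisson 95% interval 13.7 to 15.0), or 1 per 69.8 kb. The other autosomes carried 39.2 per Mb of covered sequence (39.0 to 39.5), where covered sequence leaves out stretches of 1 Mb or more without a summit. Here and below, the other autosomes are all 100498 autosomal peaks outside the interior, so they include the rest of chromosome 4 and the long arms of chromosomes 6 and 13. The ratio of the 4q interior to the other autosomes was 0.365 (0.349 to 0.382). The interior thus made up 4.95% of the covered autosomal sequence and held 1.86% of the autosomal peaks.

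The size of this contrast depended on which scores were counted. The ratio was 0.430 when only scores at or above the upper quartile of the list (12.2) were counted. It was 0.199 when peaks with a score that at least 150 peaks of the list share were left out. In both settings the 4q interior remained the sparser of the pair.

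Among the interiors of the 39 autosomal arms, built in the same way, the 4q interior had the lowest density, ahead of 6q, 18q and 13q. The interior of 6q held 1606 peaks at 15.4 per Mb, so the ratio of 4q to 6q was 0.928 (0.868 to 0.993). The interior of 13q held 1574 peaks at 17.3 per Mb, and the ratio of 4q to 13q was 0.827 (0.774 to 0.885). The 3 interiors were thus close to each other beside the gap to the other autosomes. On chromosome 4 itself the interior carried 0.608 times as many peaks per Mb as the whole short arm (0.565 to 0.654), where 1170 peaks gave 23.6 per Mb. That short arm keeps its outer 5 Mb, unlike the 4q interior. Without them, the interior of 4p held 864 peaks at 19.4 per Mb. The 4q interior carried 0.411 times as many peaks per Mb as the outermost 5 Mb of its own arm (0.352 to 0.483), where 174 peaks gave 34.8 per Mb.

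The bounds of the interval fell in different surroundings. The first member, at 52703737 with a score of 15.3, was the first summit after 3.04 Mb without a peak, and the last summit before that stretch, at 49659637, scored 45.2. The last member lay at 186021321 with a score of 8.82, and the first summit past the bound, at 186048962, scored 7.91. The proximal bound is therefore set by a peak-free stretch, while the distal bound cuts through a run of closely placed summits.

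In bins of 1 Mb the counts were mostly low, though not even. All 133 full bins held a summit, and their counts lay between 3 and 47, around a median of 13 (quartiles 10 and 17). The partial bins at the proximal and distal bound held 9 and 2 further peaks. In 33 bins there were fewer than 10 peaks, and in 23 there were 20 or more. Only 4 bins reached 29, the median bin of the other autosomes.

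**Figure D1:**
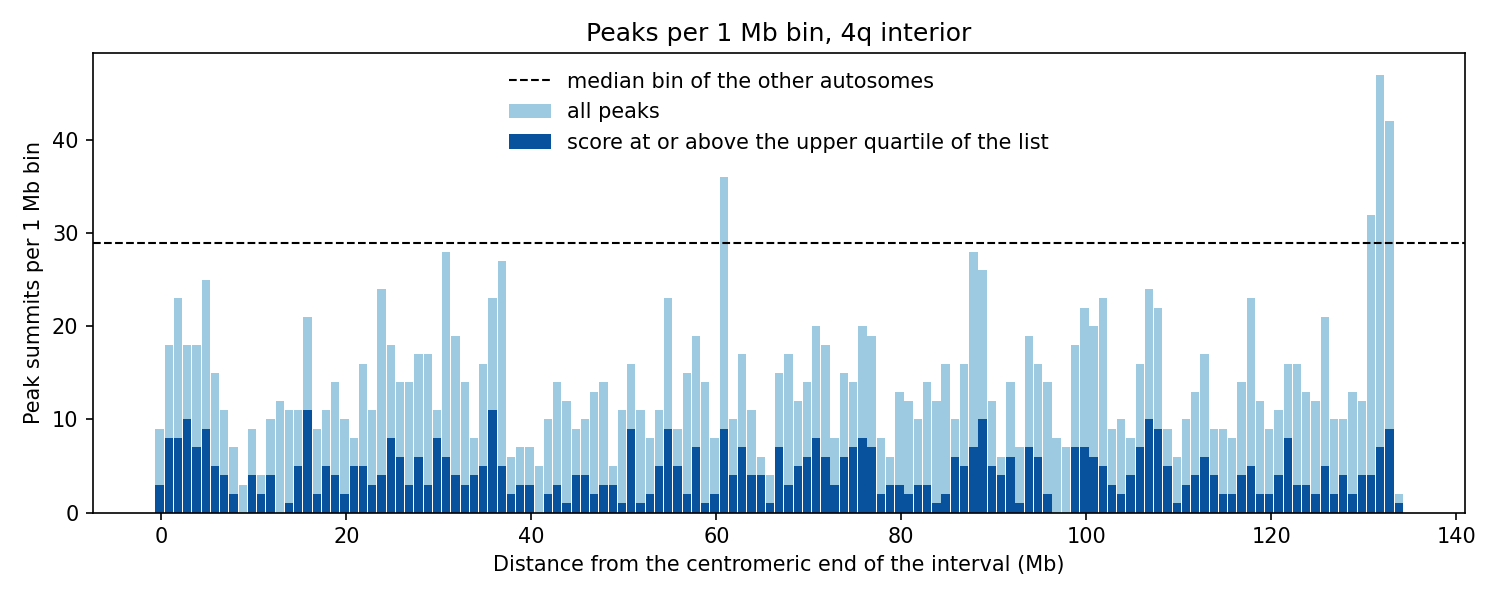
Summits per 1 Mb bin (y axis) along the 4q interior, with distance from the bound next to the centromere in Mb (x axis). Light bars are all peaks, dark bars those with a score at or above 12.2, and the dashed line is the median of 29 in the other autosomes. The 3 tall light bars at the far right hold 32, 47 and 42 peaks, of which 4, 7 and 9 reach 12.2, and the single tall bar near the middle holds 36.

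Beside 6q and 13q, the 4q interior had a like median bin and fewer bins at the upper end. The median was 13 in the 4q interior, 13 in the 6q interior (104 full bins) and 13.5 in the 13q interior (90 full bins), against 29 in the other autosomes (2553 bins that hold a peak). Bins with 30 or more peaks made up 3.01% of the 4q interior, 8.65% of the 6q interior and 15.6% of the 13q interior, against 49.2% of the other autosomes. The variance of the counts over their mean was 3.52 in the 4q interior, 5.82 in the 6q interior and 6.71 in the 13q interior, against 21.4 in the other autosomes. For their mean, bins thus varied least in the 4q interior among these 4 sets. In all 4 the variance was above the mean, so intervals that take each peak as independent are likely too narrow.

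**Figure D2:**
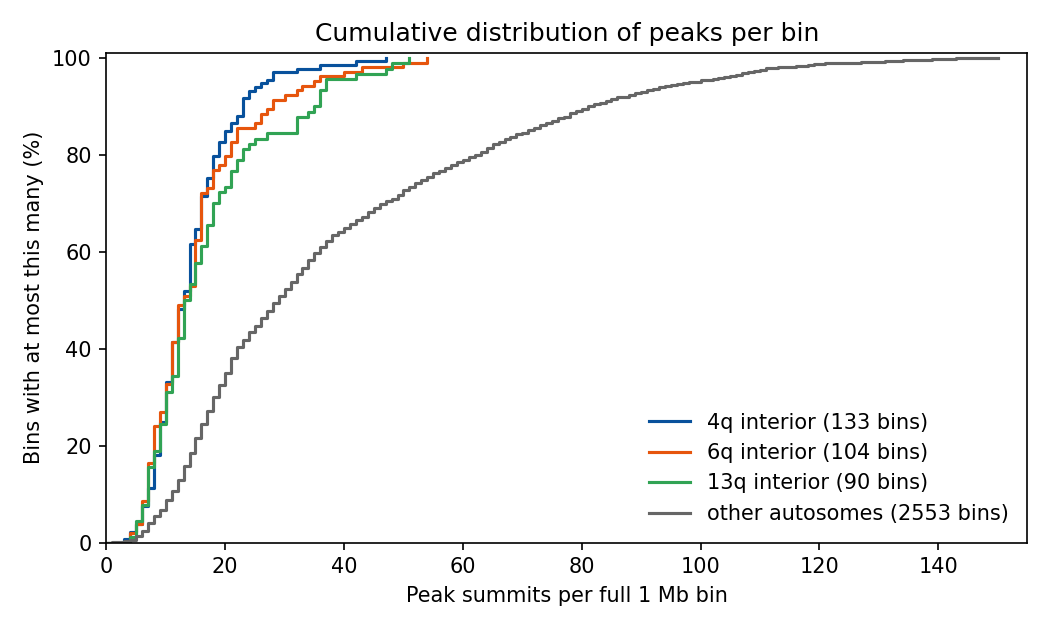
Cumulative percentage of full 1 Mb bins (y axis) with at most the number of summits on the x axis. The curves of the interiors of 4q, 6q and 13q run together up to their medians of 13 to 13.5 and then separate, with 4q reaching its highest bin at 47, 6q at 54 and 13q at 51, while the curve of the other autosomes extends to 150.

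The bins rich in peaks lay at a few places. The 10 highest counts, with a tie at the last place, gave 11 bins of at least 24 peaks, which held 339 members. These were 17.8% of the members (exact Clopper-Pearson 95% interval 16.1% to 19.5%) on 8.25% of the length. Of the 11 bins, 5 had another of them next to it. They were the 3 bins between 183000001 and 186000000 and the 2 between 140000001 and 142000000.

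The richest group was the last 3 full bins before the distal bound, and a low share of its peaks had high scores. The bin 184000001 to 185000000 held 47 peaks with a median score of 8.11 and a highest score of 16.5, and 10 of them lay within the 100 kb from 184600001 to 184700000. The next bin, 185000001 to 186000000, held 42 peaks with a median score of 9.15, spread over all 10 of its 100 kb windows. The bin 183000001 to 184000000 held 32 peaks with a median score of 8.36, of which 9 lay between 183700001 and 183800000.

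Together these 3 bins held 121 peaks, or 6.34% of the members, and 16.5% of them reached the upper quartile of the list (10.4% to 24.4%), against 31.9% of the other 1788 members (29.7% to 34.1%). Counts stayed high past the bound, with 32 peaks between 186000001 and 187000000 and 42 between 187000001 and 188000000, but the share at or above the upper quartile was 37.5% and 28.6% there. Further in, 4 of 12 peaks reached it in the bin starting at 182000001 and 2 of 13 in the bin starting at 181000001. The values thus set no sharp inner limit to the low share. In the other rich bins 27.5% of 218 peaks reached the upper quartile (21.7% to 34.0%), and this interval overlaps that of the 3 distal bins. Without the 3 Mb next to the distal bound the interior had 13.7 peaks per Mb and a highest bin of 36.

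Away from the distal bound the richest bin stood alone. The bin 113000001 to 114000000 held 36 peaks with a median score of 9.43 and a highest score of 23.1 at 113878800, and 9 of its peaks lay within the 100 kb from 113400001 to 113500000. Next came the bins 83000001 to 84000000 and 140000001 to 141000000, with 28 peaks each. In the first of them 9 peaks lay between 83300001 and 83400000. In the other, 7 lay between 140000001 and 140100000, and the median spacing of its summits was 12.4 kb. Its neighbour, 141000001 to 142000000, held 26 peaks with a median spacing of 26.2 kb and 10 scores at or above the upper quartile.

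The remaining rich bins held between 24 and 27 peaks. The bin 89000001 to 90000000 held 27 peaks, 18 of them with a shared score, and no 100 kb window of it held more than 5. The bin 57000001 to 58000000 held 25 peaks at a median spacing of 37.9 kb. The bins 76000001 to 77000000 and 159000001 to 160000000 held 24 peaks each. In the first of these 7 peaks lay between 76500001 and 76600000, and in the second the closest pair of summits was 4.59 kb apart. In the other 10 rich bins the closest pair was between 0.547 and 1.19 kb apart.

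Counting high scores alone gave a partly different set of rich bins. The bins with most scores at or above the upper quartile were 88000001 to 89000000, with 11 of 23 peaks, and 68000001 to 69000000, with 11 of 21. Of the 11 bins with 9 or more such scores, 5 were also among the 11 bins richest in peaks, and the bin with 47 peaks was not, with 7. At least 1 such score was present in 128 of the 133 full bins. High scores were therefore present almost throughout the interior.

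At a coarser scale the interior alternated between thinner and fuller segments. In segments of 10 Mb the lowest density was 9.30 peaks per Mb between 90000001 and 100000000 (exact Poisson 95% interval 7.51 to 11.4). The segment from 60000001 to 70000000 was close to it, with 9.70 (7.87 to 11.8). The segment 80000001 to 90000000, which lies between them, carried 18.0 (15.5 to 20.8). The proximal 7.30 Mb of the interior carried 18.8 (15.8 to 22.2) and the distal 6.04 Mb carried 26.1 (22.2 to 30.6). The other 9 segments lay between 11.7 and 15.7 peaks per Mb. The lowest window of 5 consecutive bins ran from 60000001 to 65000000 and held 33 peaks. The highest ran from 181000001 to 186000000 and held 146. Without the 3 most distal bins the highest such window ran from 53000001 to 58000000, with 102 peaks. The proximal 7.30 Mb were close in density to the inner segment 80000001 to 90000000, and their intervals overlap.

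The 10 poorest bins held 51 peaks in all. The lowest count was 3, between 61000001 and 62000000, where the scores lay between 7.37 and 8.28 and all of them were shared scores. The bins 63000001 to 64000000 and 118000001 to 119000000 held 4 peaks each. The longest run of bins under 10 peaks was 4 bins long, from 60000001 to 64000000, with 23 peaks in all. It also held the strongest peak of the interior, described below.

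Long stretches without a summit were frequent but none reached 1 Mb. The median distance between neighbouring summits was 39.2 kb (quartiles 13.6 and 92.6 kb), against 11.8 kb in the other autosomes. Stretches of at least 100 kb numbered 441 and took up 64.5% of the length of the 4q interior, compared with 62.7% in the 6q interior, 58.9% in the 13q interior and 32.0% in the other autosomes. There were 57 stretches of at least 300 kb, with 22.7 Mb in all. That was 42.8 per 100 Mb in the 4q interior, 32.7 in the 6q interior and 33.0 in the 13q interior, against 12.7 in the other autosomes. Of the 39 arm interiors 3 had more, with 65.5 per 100 Mb on 21q, 49.3 on 4p and 47.7 on 18q. For stretches of at least 500 kb the order turned, with 4.50 per 100 Mb in the 4q interior, 7.69 in the 6q interior and 6.60 in the 13q interior, against 1.83 in the other autosomes. These last counts rest on 6, 8 and 6 stretches. Stretches of at least 200 kb numbered 107 per 100 Mb in the 4q interior, 115 in the 6q interior and 112 in the 13q interior, against 43.3 in the other autosomes. The 4q interior thus exceeded 6q and 13q at 300 kb, but not at 200 kb or 500 kb.

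The longest stretch ran from the summit at 149788842 to that at 150475952, a length of 687 kb. It was followed by 655 kb between 93393238 and 94047878 and by 593 kb between 143174878 and 143768211. The next was 579 kb long, between 69381027 and 69959907. A pair of stretches of 546 kb (62811408 to 63357828) and 542 kb (61524472 to 62066476) lay less than 1 Mb apart, in the run of poor bins named above. The last 4 of the 10 longest were 460 to 487 kb long and began at 91602630, 101752089, 174638934 and 118383440. The 1 Mb on either side of these 10 was not empty and held between 5 and 18 summits, the summit at the edge of the stretch included. The median full bin of the 4q interior held 13.

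Stretches of at least 300 kb were unevenly placed along the interior. The segment 90000001 to 100000000 held the start of 8 of them, and 4 further segments, starting at 60000001, 100000001, 130000001 and 160000001, held 6 or 7 each. The segment 150000001 to 160000000 held the start of 1, as did the distal 6.04 Mb. The 113 summits at the edges of these stretches had a median score of 9.22, as had the other members. Of the edge summits 23.9% reached the upper quartile (16.4% to 32.8%), against 31.3% of the other members (29.2% to 33.5%), and these intervals overlap. High scores were thus not more frequent at these edges than elsewhere in the interior.

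**Figure D3:**
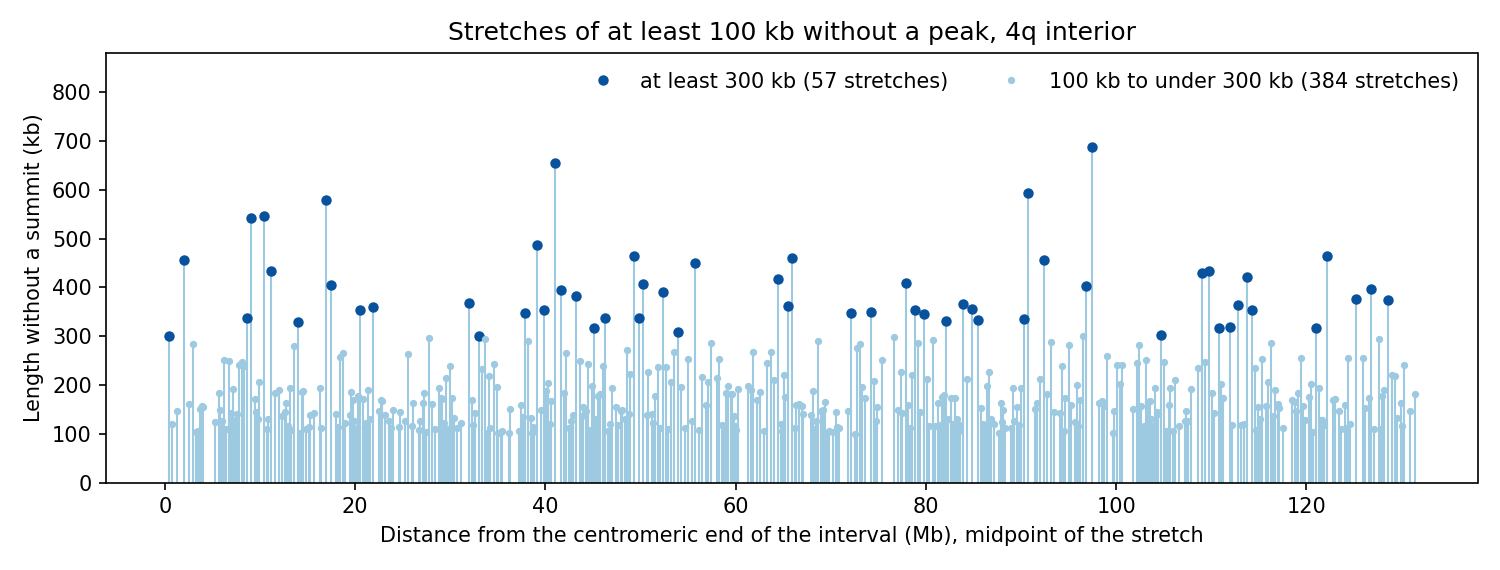
Length in kb (y axis) of every stretch of at least 100 kb between neighbouring summits, at its midpoint along the 4q interior in Mb from the bound next to the centromere (x axis). Dark points are the 57 stretches of at least 300 kb and pale points the shorter ones. The longest, 687 kb, stands just short of 100 Mb, and none reaches 1 Mb.

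The score of a peak is the authors' own value, and the deposited header names no unit for it. It is used here only to rank peaks within the list. Scores of the interior had a median of 9.22, quartiles of 7.13 and 13.2, and extremes of 2.73 and 54.6. In the other autosomes the median was 8.50 and the quartiles were 6.49 and 12.2. The middle of the distribution was therefore higher in the 4q interior than in the other autosomes. The 6q interior had the same median, 9.22, and the 13q interior had 8.80. That median of 4q is a single score value carried by 127 members. It ranked 4 among the 39 arm interiors, in a tie with several others, such as the denser 3q and 1q. In the 4q interior 30.9% of peaks reached the upper quartile of the list (28.8% to 33.0%), against 26.2% in the other autosomes (26.0% to 26.5%). Over all autosomal peaks the background was 26.3%. The share was 28.0% in the 6q interior and 25.8% in the 13q interior, and that of 4q ranked 9 among the 39 arm interiors. The upper quartile is itself a score with many ties, and with those ties left out the shares were 28.2% in the 4q interior (26.2% to 30.3%) and 24.7% in the other autosomes (24.4% to 24.9%).

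Towards the top of the scale the order turned. The top 10% of the list held 10.5% of the peaks of the 4q interior (9.14% to 11.9%) and 10.1% of those of the other autosomes (9.89% to 10.3%), with 10.1% over all autosomal peaks. At a score of 20 or more the shares were 5.19% in the 4q interior and 6.24% in the other autosomes. The 99th percentile was 24.3 in the 4q interior, 25.7 in the 6q interior and 24.6 in the 13q interior, against 29.9 in the other autosomes. A score of 30 was reached by 3 of 1909 peaks in the 4q interior, by 6 of 1606 in 6q and by 4 of 1574 in 13q, against 999 of 100498 in the other autosomes. The lowest scores were likewise fewer, with a 1st percentile of 4.04 in the 4q interior, against 3.45 in the other autosomes. The interior thus held fewer peaks at both ends of the scale than the other autosomes, and it shared the thin upper end with 6q and 13q.

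**Figure D4:**
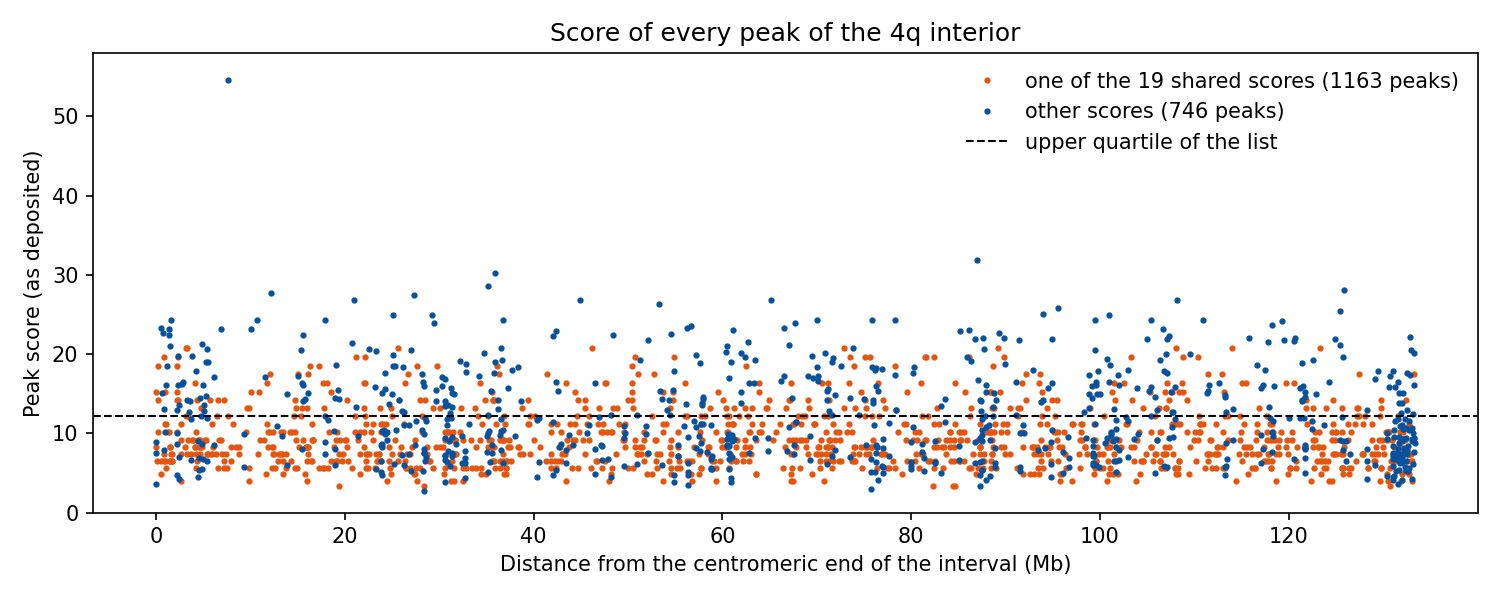
Score of each of the 1909 peaks (y axis, as deposited) along the 4q interior in Mb from the bound next to the centromere (x axis). Orange points carry a score shared by at least 150 peaks of the list and line up in rows, blue points carry other scores, and the dashed line is the upper quartile of 12.2. The score of 54.6 stands alone above the rest, and blue points crowd in the last 3 Mb.

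The strongest peak of the interior, at 60384991, scored 54.6 and was 1.71 times the next. It ranked 141 in the list and was the only member among the 167 peaks of the list that reach 50. Its bin held 7 peaks with a median of 8.28, and its nearest summit, 42.6 kb away, scored 12.2. The peak therefore stood by itself in the sparsest window of the interior. The next were at 139660469, with a score of 31.8, and at 88619397, with 30.2. The first of these was 79.1 kb from its neighbour, and the other had a summit with a score of 19.0 at 12.5 kb.

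The 11 highest scores, with a tie at the last place, lay in 11 different bins. After the 3 above, the scores ran from 28.6, at 87917208, to 26.8, a value shared by the summits at 73631809, 97663778 and 117847333. Between them came 178528599 with 28.0, 64902905 with 27.7, 80043110 with 27.5 and 160860511 with 26.9. Of the 11, 7 had no other summit within 20 kb, a feature of 47.7% of all members. Only the summit at 88619397 lay in a bin of 23 or more peaks, a class that holds 16 of the 133 full bins.

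Across the 133 full bins the count said little of the median score (Spearman's rho = -0.081, a description over bins of a single list). With the highest score of a bin the rho was 0.251, and a bin with more peaks has more scores from which its highest is taken. Bins with fewer than 10 peaks had a median score over their peaks of 9.95 (order-statistic 95% interval 9.22 to 11.2), and the 16 bins with 23 or more had 9.22 (8.55 to 9.30). The share at or above the upper quartile was 35.1% in bins of fewer than 10 peaks, 29.6% in those of 10 to 16, 36.1% in those of 17 to 22 and 26.0% in those of 23 or more. It followed no order with the count. Among the 100 bins of at least 10 peaks, the highest median score was 14.03, between 82000001 and 83000000, where 8 of 11 peaks reached the upper quartile. The bins starting at 55000001, 103000001, 138000001 and 174000001 followed, with medians from 12.6 to 12.9. The lowest median was 6.49, in the bins starting at 109000001 and 176000001. The bins starting at 111000001, 85000001 and 65000001 had medians from 6.98 to 7.37. Bins with high and low medians held similar counts, from 10 to 18 peaks in the first set and from 12 to 15 in the other.

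Repeated scores were common in the interior. In the whole list 19 score values, from 3.29 to 20.8, are each carried by at least 150 peaks. Such a shared score was found on 1163 members, or 60.9% (58.7% to 63.1%), against 28.3% of the peaks of the other autosomes (28.1% to 28.6%), with 29.0% over all autosomal peaks as background. The share was 56.1% in the 6q interior (53.6% to 58.5%) and 52.7% in the 13q interior (50.2% to 55.2%). Among the 39 arm interiors 4q had the highest share. All 19 values occurred in it, most often 7.37, carried by 141 members, and 8.28, carried by 131. The 1909 members thus took only 608 different scores.

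The share of shared scores went down as bins filled. It was 76.6% in bins of fewer than 10 peaks (70.7% to 81.8%), 67.3% in bins of 10 to 16, 55.4% in bins of 17 to 22 and 46.5% in bins of 23 or more (41.8% to 51.2%). In the 3 most distal bins it was 30.6% (22.5% to 39.6%), close to the 28.3% of the other autosomes. Around stretches of at least 300 kb it was 81.4% of the edge summits (73.0% to 88.1%), against 59.6% of the other members (57.3% to 61.9%). Crowded parts of the interior therefore carried more varied scores than thin ones.

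Summits of the interior also stood farther from each other. The nearest summit was at a median of 17.8 kb in the 4q interior, 16.8 kb in the 6q interior and 13.3 kb in the 13q interior, against 6.69 kb in the other autosomes. No other summit lay within 20 kb of 47.7% of the members (45.4% to 49.9%), against 16.4% of the peaks of the other autosomes (16.2% to 16.7%). None lay within 100 kb of 121 members, or 6.34% (5.29% to 7.53%), against 0.949% in the other autosomes (0.890% to 1.01%). For 20 kb the shares were 44.3% in the 6q interior and 39.1% in the 13q interior, and for 100 kb 6.66% and 5.46%. Such isolation was thus not particular to the 4q interior. Close pairs were still present, with 7.91% of members under 1 kb from another summit (6.74% to 9.21%), against 11.1% in the other autosomes (10.96% to 11.3%). Among distances between neighbouring summits, those under 0.5 kb made up 0.314% in the 4q interior (0.115% to 0.683%, 6 pairs), against 0.672% in the other autosomes (0.622% to 0.724%). Those of 0.5 to 1.5 kb made up 7.08% in the 4q interior (5.97% to 8.32%), against 8.85% in the other autosomes (8.68% to 9.03%). Those of 5 to 8 kb made up 4.87% in the 4q interior (3.95% to 5.94%), against 14.8% in the other autosomes (14.6% to 15.1%). This last class made up 6.04% in the 6q interior and 6.36% in the 13q interior.

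Set side by side at like distances to the nearest summit, scores of the interior and of the other autosomes were close in level at most distances but not in how often they repeated. At 20 to 50 kb the median score was 10.2 for 518 members (9.22 to 10.2), against 10.0 for 12082 other autosomal peaks (9.43 to 10.2). At 50 to 100 kb it was 9.90 in the 4q interior (9.22 to 10.2), against 9.43 in the other autosomes (9.22 to 10.2). At 1.5 to 5 kb the 4q interior was higher, with 8.31 (8.04 to 9.21), against 7.82 in the other autosomes (7.76 to 7.89). It was also higher at 5 to 10 kb, with 10.2 (9.22 to 11.2), against 8.64 in the other autosomes (8.54 to 8.73). The medians of 6q and 13q were 8.28 and 7.55 at 1.5 to 5 kb, and 9.22 and 8.79 at 5 to 10 kb. At 5 to 10 kb 38.03% of 213 members reached the upper quartile (31.5% to 44.9%), against 27.5% of the other autosomal peaks (27.0% to 28.1%).

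Shared scores were more frequent in the 4q interior than in the other autosomes in every class of distance. With the nearest summit at 0.5 to 1.5 kb, 21.6% of 264 members carried a shared score (16.8% to 27.0%), against 6.60% in the other autosomes (6.23% to 6.99%). At 5 to 10 kb the shares were 63.4% in the 4q interior (56.5% to 69.9%) and 24.7% in the other autosomes (24.2% to 25.2%). At 10 to 20 kb they were 70.1% in the 4q interior (64.8% to 75.03%) and 40.8% in the other autosomes (40.1% to 41.5%). At 20 to 50 kb they were 72.0% in the 4q interior (67.9% to 75.8%) and 63.2% in the other autosomes (62.4% to 64.1%). At 50 to 100 kb they were 78.2% in the 4q interior (72.8% to 83.0%) and 76.7% in the other autosomes (75.3% to 78.1%). At 100 kb or more they were 87.6% in the 4q interior (80.4% to 92.9%) and 81.6% in the other autosomes (78.9% to 84.0%). The intervals of both sets overlapped at 50 kb and beyond, and they did not overlap in any class below that. The 6q and 13q interiors were also above the other autosomes in each class below 50 kb. Their shares were 51.9% and 44.5% at 5 to 10 kb, and 70.8% and 74.9% at 20 to 50 kb. Frequent shared scores at like distances were thus not particular to the 4q interior. The density of the wider surroundings differed between the sets at each of these distances, and its part in the result was not tested.

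**Figure D5:**
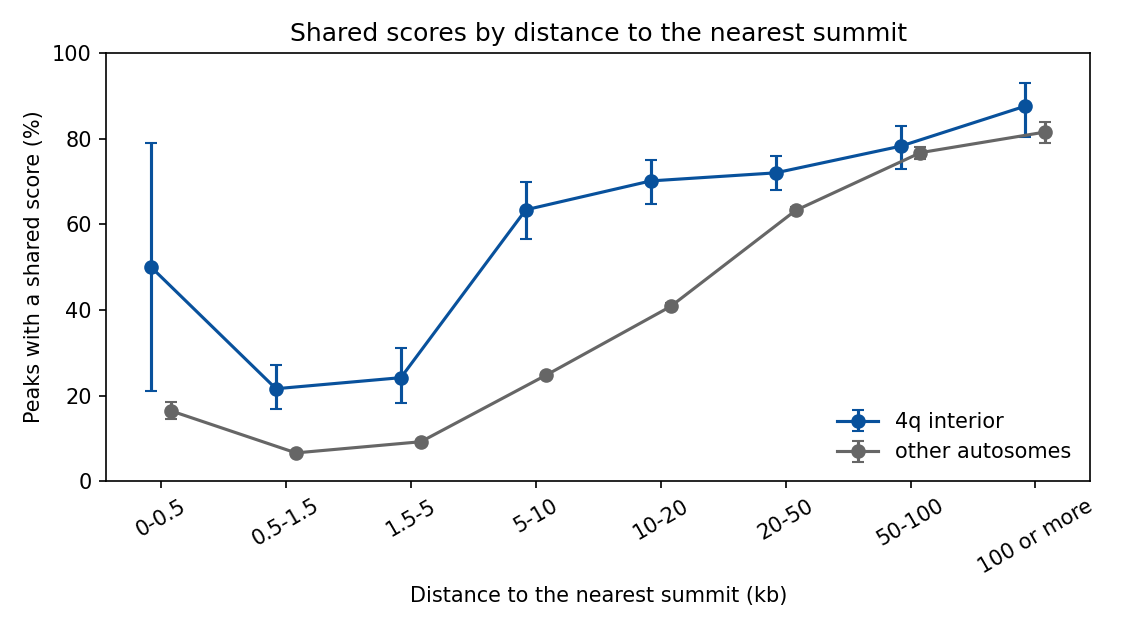
Percentage of peaks with a shared score (y axis, with exact 95% intervals as bars) by distance to the nearest summit in kb (x axis), for the 4q interior in blue and the other autosomes in grey. The 4q interior is above the other autosomes in every class, and the points come closest at 50 to 100 kb, at 78.2% for the 4q interior and 76.7% for the other autosomes. The first class rests on 12 members.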

How the data were processed

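Chromatin of A549 cells overexpressing MYOCD was precipitated with anti-Myocardin or IgG, 1 library each, per the labels. The authors deposited a single list that gives each peak a position, a strand and a score, per the file headers. Rows are 1 bp wide, so they are summits. The list's name refers to MACS, while the sources used here do not give its version, its threshold, the aligner or the use of IgG. The submitters' processing notes name CASAVA 1.4, mm9 and GRCh38.p12. Against chromosome lengths from GenomeInfoDb 1.38.1, 1085 autosomal summits lay past the end on GRCh38 and 0 on GRCh37. Positions are 1-based GRCh37. Columns with values of single samples that were not used numbered 0.

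The longest stretch without a summit split each chromosome into arms (13, 14, 15, 21 and 22 counted as long arms only), and the outer 5 Mb were removed. Bins start at multiples of 1 Mb. Bins, stretches and peaks were named by rank (10 highest with ties, 5 highest and lowest medians). Python 3.11.15, numpy 2.4.6, pandas 2.3.3, scipy 1.17.1 and matplotlib 3.10.9 were used, and the steps were tested on simulated data. Shares carry exact Clopper-Pearson intervals, densities exact Poisson intervals, ratios the interval of the share of peaks, and medians binomial order-statistic intervals. The interval, its measures and the planned lists were chosen with earlier results of these data known. Start sites, gene lists and the CArG box were not analysed here.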

Additional observations from a re-analysis of the deposited data

How the results depend on the processing

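Of 33 alternatives to 9 results, 18 stayed within the interval of the value, within 1.5 times a count, or at the same length. Over scores at or above the upper quartile alone, the density was 4.42 peaks per Mb, the ratio to the other autosomes 0.430, the median bin 4 and the highest bin 11. In that setting 146 stretches reached 300 kb and the longest was 2721 kb. With shared scores left out, the density was 5.59 peaks per Mb, the ratio 0.199, the stretches of 300 kb numbered 134 with the longest at 1846 kb, and the median score was 11.1. These settings remove peaks by construction, so lower counts and longer stretches follow. The whole long arm carried 15.1 peaks per Mb. Without the 3 Mb next to the distal bound, the 10 richest bins held 14.8% of the members, compared with 16.5% over the whole interior. The share of members above the threshold was 10.5% for the top 10% of scores and 28.2% with ties at the upper quartile left out. The 6 alternatives that left out the distal 3 Mb or the ties were chosen after seeing the data. Alternatives on start sites and the CArG box were not run, because no GRCh37 annotation or sequence was used here. No paired analysis was possible because each antibody has 1 library, so leaving out a replicate was not possible either. The list holds no read counts, and what depth limits is unknown.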
